A study of Mus musculus with 34 samples.

Results

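The genes described here are the mouse cytochrome P450 genes of families 1 to 3, the enzymes that carry out most of the liver's oxidation of drugs and other foreign compounds. They were chosen by symbol: every row of the normalized count table that begins with Cyp, then 1, 2 or 3, a lower-case letter and digits, without Cyp2d9, Cyp2f2 and pseudogenes, which left 41 of 14086 genes. Of these, 24 had a mean of at least 10 normalized counts over the 18 libraries of that table and were tested, and the other 17 were below it and are given as levels. A further table of z-scores held 19 of the 41. Cyp2b13, Cyp3a41a and Cyp3a44, which are known as female-biased in mouse liver, are not analysed here.

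P450 enzymes are haem proteins of the endoplasmic reticulum that insert an oxygen atom into their substrate with electrons passed on by cytochrome P450 reductase. Several of them, such as Cyp1a2 and Cyp2e1, are known from normal mouse liver as pericentral genes, made in the hepatocytes around the central vein, where Wnt and β-catenin signalling is high. Others respond to xenobiotic receptors, and in mice several Cyp2 and Cyp3 genes differ between the sexes.

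RNA was extracted in bulk from frozen mouse liver samples, and libraries kept the strand. The tumours were of a hydrodynamic injection model, in which plasmids are pushed into the liver through the tail vein. The series asks how β-catenin forms made by exon skipping relate to subtypes of liver cancer. Normalized counts were available for 2 wild type samples, 3 with the β-catenin skip 1 isoform alone, 2 with the skip 2 isoform alone, 5 with the skip 1 isoform induced, 2 with the skip 2 isoform induced and 4 with ΔN90-β-catenin induced, named dN90 in the plots. ΔN90-β-catenin is a stabilised protein without its amino terminus. The z-scores for the subtypes covered 4 samples of subtype A, 9 of subtype B and 3 of the control named sgActin and YAPS127A, a guide against actin with an activated form of the Hippo pathway effector YAP. The labels used here name no strain, sex, age, promoter or time after injection and do not say whether the induced samples carried a further oncogene. For the 4 skip 2 samples another label repeats skip 1, and the source label was used. The samples without an induced form are called controls below, and the induced groups are called tumour groups, although the source labels do not name tumours. Each induced isoform was set against the same isoform alone as its own control. No samples with ΔN90 alone were in the series, so ΔN90 was set against wild type. Its differences are therefore not a like contrast to those of the isoforms.

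Promoters of 4 genes are printed first because the results turn on them. Cyp2c67 and Cyp3a11 had the smallest limma adjusted p-values of all P450 genes in the ΔN90 samples. Cyp2c68 is the neighbour of Cyp2c67 with the opposite order of means among the induced groups. Cyp2e1 was not called in any comparison of the normalized counts. The sequences are from RefSeq on GRCm38.p6, run 5′ to 3′ on the gene's strand and cover 250 bases before the start and 50 from it. Capitals mark matches on that strand to CAAAGNNCA, a core of sites of the hepatocyte factor HNF4, and to TTGCNNAA, a core of C/EBP sites. The windows are chr7:140763569-140763868 (+) for Cyp2e1, chr5:145879805-145880104 (−) for Cyp3a11, chr19:39648993-39649292 (−) for Cyp2c67 and chr19:39741052-39741351 (−) for Cyp2c68.
Cyp2e1: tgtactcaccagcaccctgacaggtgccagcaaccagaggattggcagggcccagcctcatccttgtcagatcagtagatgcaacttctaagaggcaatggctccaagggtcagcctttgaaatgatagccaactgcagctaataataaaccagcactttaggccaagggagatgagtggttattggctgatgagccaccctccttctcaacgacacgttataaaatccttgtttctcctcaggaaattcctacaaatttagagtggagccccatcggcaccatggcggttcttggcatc
Cyp3a11: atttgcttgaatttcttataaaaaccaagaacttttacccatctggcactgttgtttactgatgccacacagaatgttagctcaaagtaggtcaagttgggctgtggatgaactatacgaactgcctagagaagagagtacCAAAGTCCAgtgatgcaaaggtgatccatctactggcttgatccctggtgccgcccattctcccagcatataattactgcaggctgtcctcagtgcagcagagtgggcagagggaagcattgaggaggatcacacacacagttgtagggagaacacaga
Cyp2c67: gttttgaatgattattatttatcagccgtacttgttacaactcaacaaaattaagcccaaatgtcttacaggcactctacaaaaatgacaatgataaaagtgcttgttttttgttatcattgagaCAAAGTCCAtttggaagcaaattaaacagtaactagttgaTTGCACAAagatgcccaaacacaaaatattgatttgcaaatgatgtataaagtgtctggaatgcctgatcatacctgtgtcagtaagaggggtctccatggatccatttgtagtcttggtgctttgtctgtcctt
Cyp2c68: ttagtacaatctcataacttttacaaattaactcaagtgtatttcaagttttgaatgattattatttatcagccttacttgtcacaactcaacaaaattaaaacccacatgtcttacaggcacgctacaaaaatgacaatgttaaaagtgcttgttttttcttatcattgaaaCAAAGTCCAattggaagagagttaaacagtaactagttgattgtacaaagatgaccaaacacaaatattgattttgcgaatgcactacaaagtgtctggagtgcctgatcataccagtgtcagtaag
The Cyp2c67 window held the HNF4 core at -125 and the C/EBP core at -85, counted from the start site. The Cyp2c68 window held the HNF4 core at -77 and the Cyp3a11 window at -109, and the Cyp2e1 window held neither. Aligned with gaps, the Cyp2c67 and Cyp2c68 windows had the same base at 230 of 349 positions (65.9%). Those positions include gaps, because the windows are offset: the first bases of the Cyp2c67 window recur further inside the Cyp2c68 window. The percentage therefore understates the likeness of the stretch they share. The HNF4 core lies within that stretch in both, so its different positions go with the offset. Of 35 of the 41 genes with a promoter in the table, 16 held the HNF4 core on either strand, against 6.36% of all 32851 promoters of this length, and 10 held the C/EBP core, against 10.8%. The core CTTTGAT of the TCF factors that act with β-catenin was in 2 of the 35, Cyp2c29 and Cyp2c39, against 3.73%. The xenobiotic response element core TNGCGTG was in 1, Cyp2c68, where it lay on the other strand, against 5.07%. The palindromic HNF1 site was in 0 of the 35, against 0.0091%. Many of these genes are tandem duplicates that share promoter sequence, so the matches are not independent, and a match is only a description of the letters.

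In wild type liver Cyp2e1, which oxidises ethanol, paracetamol and small solvents, had the highest level per length, at 1517 normalized counts per kb of exon on the mm10 annotation. Cyp3a11, the main mouse counterpart of the human drug-oxidising CYP3A4, followed at 333, then the coumarin hydroxylase Cyp2a5 at 230.5, Cyp2d26 at 214 and the arachidonic acid epoxygenase Cyp2c29 at 209. The length was that of all annotated exons joined, 5093 bases for Cyp3a11 and 3061 for Cyp2c29. Their longest protein-coding transcripts were 2344 and 1783 bases, so these levels and the order below Cyp3a11 depend on the length used. The caffeine-oxidising Cyp1a2 was at 147. The long-chain fatty acid hydroxylase Cyp2u1 was at 13.5. By position, 13 of the 40 genes found in the annotation lay on chromosome 19, which holds the Cyp2c cluster, 11 on chromosome 7, 5 on chromosome 15 and 5 on chromosome 5. The libraries were shallow, with an estimated 361772 to 933146 reads each, which limits the precision of low genes.

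**Figure D1:**
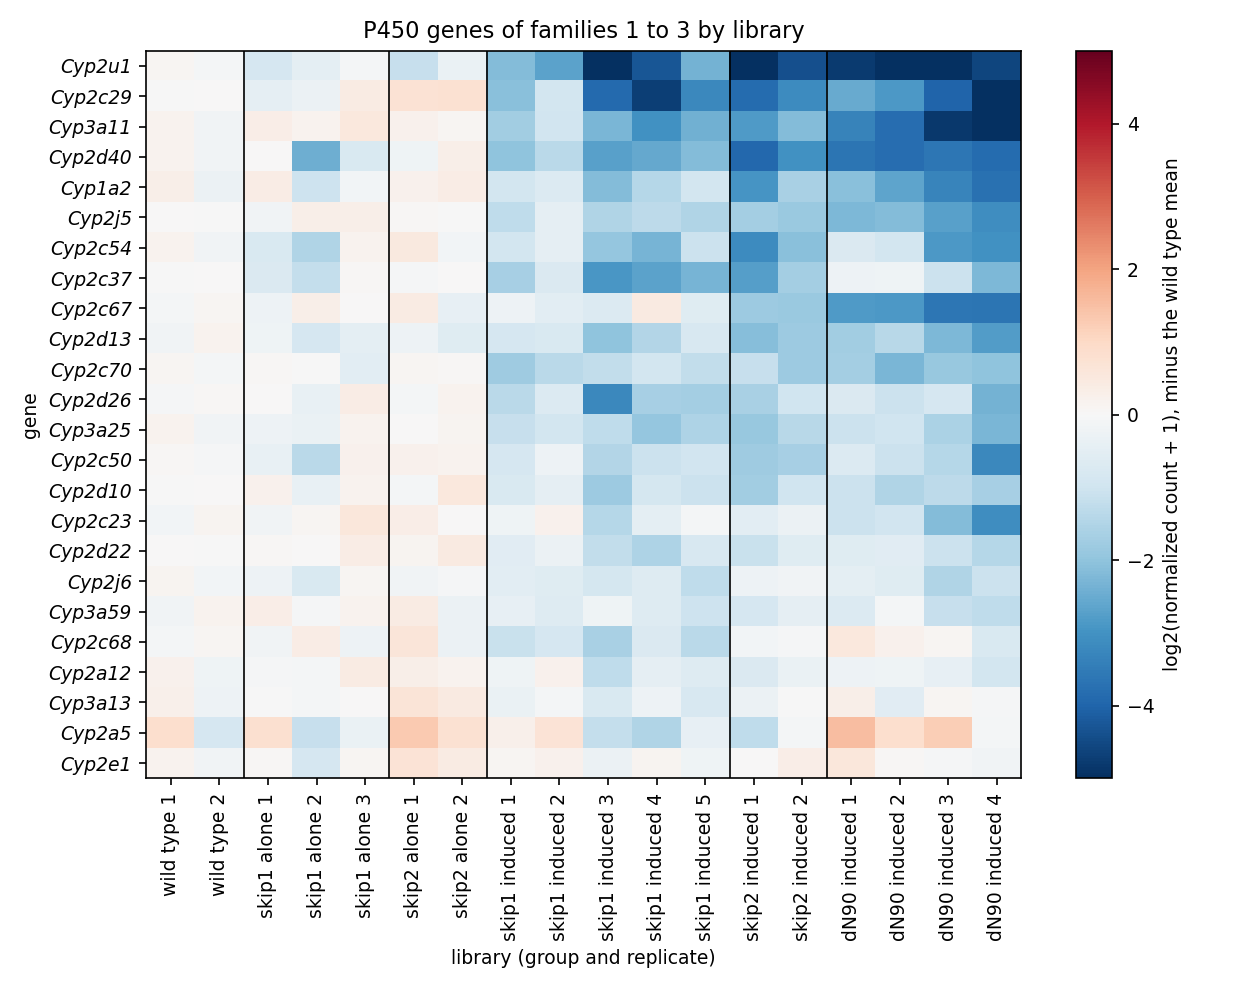
Colour gives log2(normalized count + 1) of each of the 24 tested genes (rows) in each of 18 libraries (columns), minus the mean of the 2 wild type libraries. The 11 induced libraries, right of the skip2 alone columns, are mostly blue, while Cyp2e1 and Cyp2a5 in the lowest rows are not.

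Differences below are on the log2(normalized count + 1) scale, which understates the change of low genes, and a gene is called at a limma adjusted p under 0.05 over all 6592 genes tested. Folds are taken from that scale. In bulk tissue, fewer cells of a type and less RNA per cell cannot be told apart.

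In skip 1 induced samples, 11 of the 24 P450 genes were lower than with the skip 1 isoform alone and 0 were higher, where limma called 8.18% of all genes lower and 6.55% higher. At an unadjusted p under 0.05, 16 were lower and 0 higher, where 1853 of all 6592 genes passed in either direction. The median difference of the 24 was -0.98, against -0.02 over all genes tested. The lowered genes were 4 of 8 tested in the Cyp2c subfamily, 3 of 5 in Cyp2d, 2 of 4 in Cyp3a, 1 of 2 in Cyp2j and the single Cyp2u gene.

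Cyp2c29 stood at 469, 525.8 and 858 normalized counts with the skip 1 isoform alone and at 149.6, 342, 42.7, 23.5 and 68.1 when it was induced. All 5 induced libraries lay below all 3 controls, replicates 1 and 2 being the least lowered. The difference was -2.85 (SE 0.62, limma adjusted p = 0.00386), or 7.23-fold lower. Cyp3a11 went from 2136, 1921 and 2414 to 501, 860.3, 349, 208 and 315, again without overlap and with replicates 1 and 2 the highest (-2.43, SE 0.41, limma adjusted p = 0.000591). Cyp2u1 was at 39.5, 49.5 and 66.1 in the controls and at 15.1, 10.2, 0.929, 2.71 and 12.8 in the induced libraries, where 0.929 is the value of 1 read in replicate 3. Its difference was -2.87 (SE 0.53, limma adjusted p = 0.00101).

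Cyp2d26, of the subfamily that in humans includes the drug-oxidising CYP2D6, was at 388, 295 and 499.8 in the controls and at 151, 239.6, 39.9, 121 and 118 when skip 1 was induced. Cyp2j5, an arachidonic acid epoxygenase, was at 222, 306 and 312 and then at 104, 183, 89.2, 100.2 and 88.4. Both were without overlap and fell, by 1.73 (SE 0.41, limma adjusted p = 0.0071) and by 1.34 (SE 0.24, limma adjusted p = 0.000885). Cyp2c70, which makes muricholic acids, the murine bile acids, was at 230.2, 216 and 151 and then at 63.5, 86.0, 93.8, 114 and 91.6. Cyp3a25 was at 276, 263 and 368 and then at 148, 173, 136, 85.9 and 111. These also did not overlap, with differences of -1.14 (SE 0.22) for Cyp2c70 and -1.23 (SE 0.27) for Cyp3a25. The other lowered genes were Cyp2c37 (-1.45), Cyp2c68 (-1.11), Cyp2d22 (-1.04) and Cyp2d10 (-1.01), and each of these lost its call when 1 library was left out. They were lost without skip 1 alone replicate 1 (Cyp2c37, Cyp2d10), 2 (Cyp2c68) or 3 (Cyp2c37, Cyp2d10, Cyp2d22), and Cyp2c37 also without induced replicate 3, 4 or 5. The remaining 7 were called whichever library was left out.

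Skip 1 induced replicates 1 and 2 held the largest share of P450 transcripts of that group. The 40 genes other than Cyp2e1 made up 0.621% and 0.819% of the normalized counts there, 0.401%, 0.437% and 0.520% in replicates 3 to 5 and 0.844% to 1.14% in the 7 controls. Without both, 13 genes were lower, Cyp2a12 (-0.88) and Cyp2d40 (-1.42) in addition, and Cyp2c29 differed by -3.83, Cyp3a11 by -2.92 and Cyp2u1 by -3.48. The libraries left out are those with the highest P450 share, so larger falls without them follow in large part from that choice and are no further support. The summed hepatocyte markers moved the same way. The sum of 7 of them was 68577 to 74346 in the skip 1 controls and 16213 to 50732 when skip 1 was induced, with 3 of 7 called lower. Alb, the albumin gene, made up most of the sum in those controls (mean 51886) and fell by 1.78. The marker Hnf4a was not called (-0.31). The sum of 6 biliary markers was 8.24 to 19.2 and then 200.04 to 474, and both that were tested were higher. In wild type liver the biliary markers Krt7 and Epcam were at 0. Summed stellate and fibroblast markers did not overlap in any comparison: they were 97.2 to 113 and then 195 to 294 with skip 1, 122.6 to 123.3 and then 292 to 366 with skip 2, and 65.3 to 74.3 and then 95.7 to 243 with ΔN90. Summed macrophage markers were 218 to 248 and then 268 to 426 with skip 1 and 269 to 293 and then 356 to 401 with skip 2, without overlap, and 197 to 277 and then 186 to 327 with ΔN90. Summed endothelial markers overlapped in all 3, at 195 to 242 in the controls and 133 to 269.7 in the induced samples. The T and NK cell, B cell and neutrophil markers in the table were all below the mean of 10. The part of these cell types in the P450 differences was not tested.

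In skip 2 induced samples, 15 of the 24 were lower than with skip 2 alone and 0 were higher, where limma called 8.42% of all genes lower and 6.52% higher. The median difference was -1.65, against -0.06 over all genes. By subfamily these were 6 of 8 in Cyp2c, 4 of 5 in Cyp2d, 2 of 4 in Cyp3a, 1 of 2 in Cyp2j, and the single Cyp1a and Cyp2u genes. With 2 libraries on each side the count rests on single libraries: it was 6 without skip 2 induced replicate 1 and 9 without skip 2 alone replicate 1. Hepatocyte marker sums were 70207 to 71226 in the controls and 33254 to 37288 when skip 2 was induced, and biliary sums 19.3 to 27.8 and 488 to 575. The hepatocyte sums were mostly Alb, with means of 50273 and 21990. Alb itself was not called (-1.19, limma adjusted p = 0.143), nor was Hnf4a (-0.24).

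Cyp2c29 had the largest difference, from 1062 and 1096 to 43.7 and 70.9, or 19.1-fold lower (-4.25, SE 0.85, limma adjusted p = 0.00191). Cyp2u1 went from 31.2 and 56.3 to 0.919 and 2.38, and Cyp2d40 from 35.8 and 50.8 to 1.84 and 4.17. No induced library of any of these 3 genes reached a control. Cyp1a2 went from 338 and 376 to 36.8 and 93.5 (-2.58, SE 0.53, limma adjusted p = 0.00238) and Cyp3a11 from 1980.3 and 1794 to 234 and 372 (-2.67, SE 0.57, limma adjusted p = 0.00292). Both lost the call without skip 2 induced replicate 1, with adjusted p of 0.0709 and 0.0522.

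The epoxygenase genes Cyp2c54, Cyp2c37 and Cyp2c50, in the same cluster on chromosome 19 as Cyp2c29, were lower as well. Cyp2c54 went from 124 and 81.0 to 9.19 and 20.3 (-2.78), Cyp2c37 from 126 and 135 to 18.8 and 39.9 (-2.20) and Cyp2c50 from 427 and 411 to 105 and 114 (-1.92), all without overlap. Each of these 3 was lost when skip 2 alone replicate 1 or skip 2 induced replicate 1 was left out. Cyp2c29, Cyp2c70 (-1.56), Cyp2d40 (-3.51), Cyp2j5 (-1.80) and Cyp2u1 (-4.08) were called whichever library was left out. Also lower were Cyp2c67 (-1.85), Cyp3a25 (-1.72), Cyp2d10 (-1.57), Cyp2d13 (-1.54) and Cyp2d22 (-1.16), each lost without at least 1 library.

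In ΔN90 induced samples, 16 of the 24 were lower than in wild type and 0 were higher, where limma called 12% of all genes lower and 10.8% higher. The median difference was -1.54, against 0.01 over all genes. The lowered genes were 6 of 8 in Cyp2c, 4 of 5 in Cyp2d, 2 of 4 in Cyp3a, both in Cyp2j, and the single Cyp1a and Cyp2u genes. Hepatocyte marker sums were 53968 to 55808 in wild type and 17881 to 23829 in the ΔN90 samples, and biliary sums 7.72 to 11.6 and 119 to 755. Alb, with means of 37823 and 9471 in these sums, was lower (-2.01), and Hnf4a was not called (-0.48).

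Cyp3a11 was at 1887 and 1505 in wild type and at 164, 118, 59.0 and 33.8 in the ΔN90 samples, 21.1-fold lower (-4.40, SE 0.49, limma adjusted p = 1.33e-06). Cyp2u1 went from 74.8 and 66.5 to 1.57, 1.02, 1.25 and 1.99, the largest difference of the 24 (-4.88, SE 0.62). Every ΔN90 library of these genes was far below both wild type libraries. Cyp2c29 went from 631 and 649 to 111, 86.7, 38.9 and 15.9 (-3.66, SE 0.74, limma adjusted p = 0.00103). Cyp1a2 went from 353 and 239 to 68.4, 45.9, 28.8 and 20.9 (-2.93, SE 0.46, limma adjusted p = 8.68e-05). Cyp2j5 went from 256 and 249 to 51.9, 55.1, 37.6 and 28.8 (-2.56, SE 0.29). None of these groups overlapped.

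Cyp2c70 went from 237 and 202 to 66.1, 43.9, 57.7 and 53.6 in the ΔN90 samples (-1.98, SE 0.26), and Cyp2c23, another epoxygenase, from 137 and 164 to 71.6, 77.2, 33.0 and 16.3 (-1.82, SE 0.46). Cyp2d40 (-3.73), Cyp2c67 (-3.24), Cyp2d13 (-2.04), Cyp2c54 (-1.89), Cyp2c50 (-1.60), Cyp3a25 (-1.48), Cyp2d10 (-1.38), Cyp2d22 (-0.91) and Cyp2j6 (-0.91) were lower too. Cyp2c23, Cyp2c50, Cyp2c54, Cyp2d22 and Cyp2j6 were each lost without at least 1 library, wild type replicate 2 among those for Cyp2c23. The other 11 were called whichever library was left out.

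**Figure D2:**
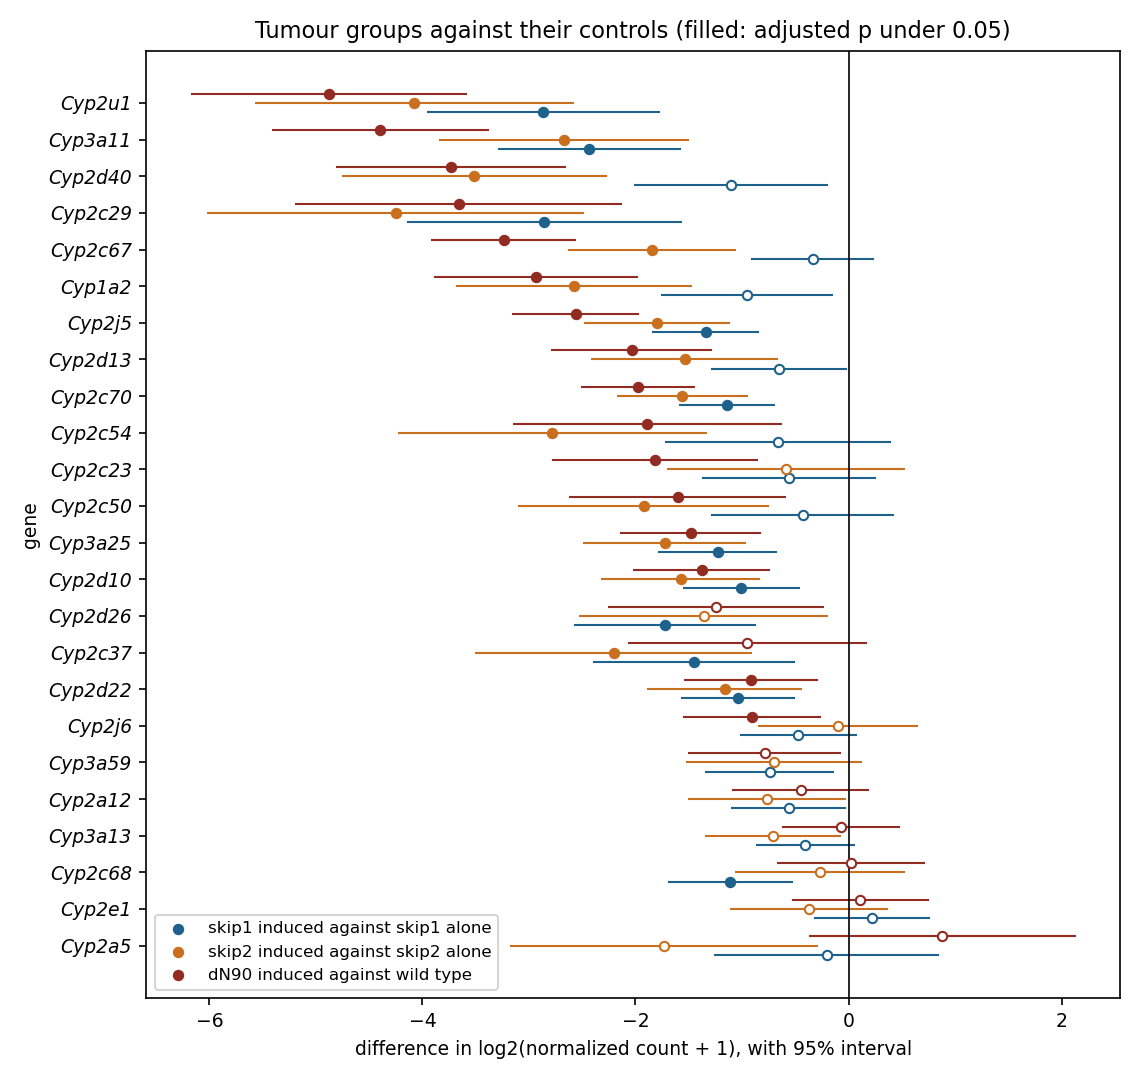
Points are log2 differences of each tested gene in the 3 tumour groups against their own controls, with 95% intervals, filled where the limma adjusted p was under 0.05. Cyp2u1, Cyp3a11 and Cyp2c29 lie between -4.88 and -2.43 in all 3 comparisons, and the intervals of Cyp2e1 include 0 in each.

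Cyp2c29, Cyp2c70, Cyp2d10, Cyp2d22, Cyp2j5, Cyp2u1, Cyp3a11 and Cyp3a25 were lower in all 3 tumour groups, each against its own control. These 8 were 72.7% of the genes lowered with skip 1, 53.3% of those with skip 2 and 50% of those with ΔN90. Over all genes tested, 3.93% were lower in all 3, and these were 48.1% of all genes lowered with skip 1, 46.7% of those with skip 2 and 32.9% of those with ΔN90. The share of the P450 genes with skip 2 was thus near that of all genes. A further 11 genes were called lower in 1 or 2 comparisons, and Cyp2a12, Cyp2a5, Cyp2e1, Cyp3a13 and Cyp3a59 in none. Of 8 genes listed as pericentral in mouse liver (Cyp1a2, Cyp2e1, Cyp2c29, Cyp2c37, Cyp2c50, Cyp2c54, Cyp2a5 and Cyp3a11), 3 were lower with skip 1, 6 with skip 2 and 5 with ΔN90, with medians of -0.81, -2.39 and -1.75. Over all genes limma called 8.18%, 8.42% and 12% lower, and of the 24 P450 genes 11, 15 and 16. The counts of the list are near those of the 24 and are no result about pericentral genes. Glul, a pericentral gene outside the P450 family that β-catenin is known to raise, differed by 1.17 with skip 1 and -1.22 with ΔN90, neither called, and was lower with skip 2 (-2.08, limma adjusted p = 0.0374). Ctnnb1, the gene of β-catenin itself, was higher with skip 1 (2.45) and skip 2 (1.497) induced and not called with ΔN90 (0.23).

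Cyp2e1 was not called in any tumour group on the scale of the deposited values. It was at 3655 and 2893 in wild type, at 3354, 1794 and 3500.4 with skip 1 alone and at 5172 and 4376 with skip 2 alone. It was at 3468, 3733, 2653, 3587 and 2785 with skip 1 induced and at 3314 and 4095 with skip 2 induced. With ΔN90 it was at 4855, 3425, 3142 and 2915. The induced libraries lay inside the range of the pooled controls, 1794 to 5172. Set against their own controls, the skip 2 induced libraries lay below the skip 2 alone libraries without overlap. The skip 1 induced and ΔN90 libraries overlapped their own controls. The differences were 0.22 with skip 1 (95% interval -0.32 to 0.76), -0.37 with skip 2 (-1.11 to 0.37) and 0.11 with ΔN90 (-0.53 to 0.75). The scale matters here: the summed normalized counts of a library were 610688 to 694773 in the controls and 415528 to 524243 in the induced samples. Under quantile normalization Cyp2e1 was called higher in all 3 comparisons, by 1.30 (limma adjusted p = 0.000664), 1.05 (limma adjusted p = 0.0255) and 1.20 (limma adjusted p = 0.00206), which turns the sign with skip 2. As a share of all normalized counts Cyp2e1 was 0.287% to 0.745% in the controls and 0.634% to 1.07% in the induced samples.

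Within the 41 genes, not divided by length, Cyp2e1 made up 25.4% to 40.0% of the summed normalized counts in the 7 controls and 46.5% to 70.1% in the 11 induced libraries, without overlap. The log2 ratio of Cyp2e1 to Cyp3a11 was -0.10 to 1.39 in the controls, 2.12 to 4.11 with skip 1 induced, 3.82 and 3.46 with skip 2 induced and 4.85 to 6.43 with ΔN90. A ratio within a library does not depend on its scaling. It shows unequal change and not which of the pair was steady.

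Cyp2a5 varied widely in every group. It was at 729 and 226 in wild type, at 714, 181 and 324 with skip 1 alone and at 1013 and 689 with skip 2 alone. It was at 479.9, 647, 179, 144 and 308 with skip 1 induced, at 167 and 377 with skip 2 induced and at 1196, 727, 956 and 377 with ΔN90. Only with skip 2 did the induced libraries lie apart from their controls. The differences of -0.21 (95% interval -1.26 to 0.85), -1.73 (-3.17 to -0.28, limma adjusted p = 0.101) and 0.88 (-0.37 to 2.13) were not called, and the first turned to 0.25 under quantile normalization. Cyp2a5 shares 40.8% of its 50-base windows with other annotated transcripts, so part of its reads could belong to a near copy. Cyp1a2 with skip 1 was at 378, 140.4 and 261 and then at 152, 179, 64.1, 108 and 154, which overlap (-0.95, limma adjusted p = 0.108).

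**Figure D3:**
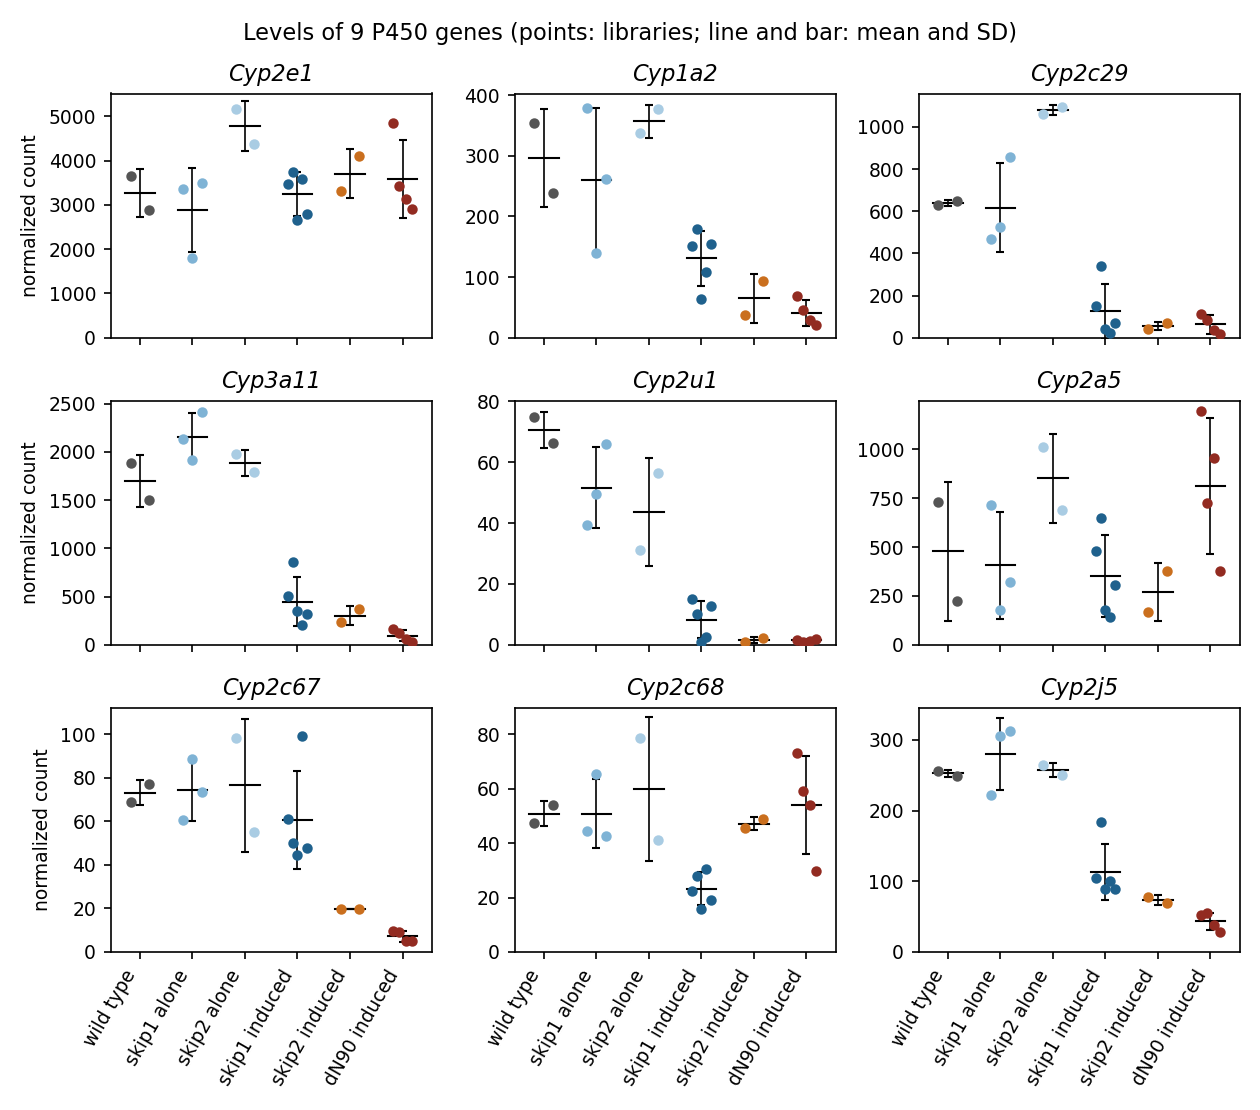
Normalized counts of 9 genes in each library (points) with the mean and SD of each group. Cyp2e1 stays between 1794 and 5172 throughout, Cyp2c29, Cyp3a11 and Cyp2u1 are lower in all induced groups, and Cyp2c67 is lowest in the ΔN90 samples (4.97 to 9.44) while Cyp2c68 is lowest with skip 1 induced (15.8 to 30.7).

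Between tumour groups the P450 genes differed less. Skip 1 against skip 2 induced gave 1 gene higher and 0 lower of 24, where limma called 3.09% of all genes higher and 0.44% lower, and the medians were 0.27 for the 24 and -0.03 for all genes. Skip 1 against ΔN90 induced gave 6 higher and 1 lower, where limma called 3.17% and 1.46% of all genes, with medians of 0.47 and -0.02. Skip 2 against ΔN90 induced gave 2 higher and 0 lower, where limma called 0.576% and 2.46%, with medians of 0.07 and 0.05. These comparisons share samples and are not independent of each other.

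Cyp2c67 was the gene called in all 3. Its values were 69.1 and 77.3 in wild type, 60.8, 88.6 and 73.5 with skip 1 alone and 98.3 and 54.9 with skip 2 alone. They were 61.3, 49.95, 44.6, 99.3 and 47.9 with skip 1 induced, 19.8 and 19.7 with skip 2 induced and 9.44, 9.18, 5.02 and 4.97 with ΔN90. The 3 tumour groups did not overlap each other, and the skip 1 induced libraries overlapped the controls. Skip 1 exceeded skip 2 by 1.51 (SE 0.32, limma adjusted p = 0.0112) and ΔN90 by 2.91 (SE 0.25, limma adjusted p = 1.51e-07), or 7.50-fold, and skip 2 exceeded ΔN90 by 1.40 (SE 0.33, limma adjusted p = 0.0246). The first was lost without skip 2 induced replicate 1, and the last without either skip 2 induced replicate or without ΔN90 replicate 3 or 4. Cyp2c67 differed by -0.34 between skip 1 induced and skip 1 alone (SE 0.28, limma adjusted p = 0.461). Between ΔN90 and wild type, an unlike contrast, it differed by -3.24. The difference between those effects was -2.90 (SE 0.43, limma adjusted p = 0.000707), in a test added after the data were seen. Cyp2c67 was the only one of the 24 called in it, where 1.08% of all genes were. The same test of the other pairs of effects called no P450 gene. There Cyp2c67 gave 1.51 for skip 1 minus skip 2 (limma adjusted p = 0.240) and -1.39 for ΔN90 minus skip 2 (limma adjusted p = 0.287).

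Cyp2c68, next to it on chromosome 19, had the opposite order of means among the induced groups, and was called higher than its controls in none. It was at 47.6 and 54.0 in wild type, at 44.4, 65.6 and 42.6 with skip 1 alone and at 78.6 and 41.2 with skip 2 alone. It was at 22.6, 27.8, 15.8, 30.7 and 19.2 with skip 1 induced, at 45.5 and 48.8 with skip 2 induced and at 73.1, 59.2, 53.9 and 29.8 with ΔN90. Skip 1 induced libraries were below all controls, and only the lowest ΔN90 library reached into their range. Cyp2c68 was lower in skip 1 than in ΔN90 samples (-1.15, SE 0.26, limma adjusted p = 0.00866), and against wild type the ΔN90 difference was 0.02 (95% interval -0.67 to 0.71). Against skip 2 the difference was -1.03 (limma adjusted p = 0.079), which passed under quantile normalization (-1.14, limma adjusted p = 0.0471).

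The log2 ratio of Cyp2c67 to Cyp2c68 within a library was 0.32 to 0.79 in the 7 controls, 0.85 to 1.69 with skip 1 induced, -1.20 and -1.31 with skip 2 induced and -3.43 to -2.58 with ΔN90. The groups of induced samples did not overlap in it, and every skip 1 induced library was above every control. These genes are close copies: 52.8% of the 50-base windows of Cyp2c67 and 43.3% of those of Cyp2c68 also occur in other transcripts, most of all in Cyp2c40 (40.0% and 35.6%). The authors' counting could therefore have moved reads between them. Cyp2c40 itself was at no more than 8.24 normalized counts in any control.

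**Figure D4:**
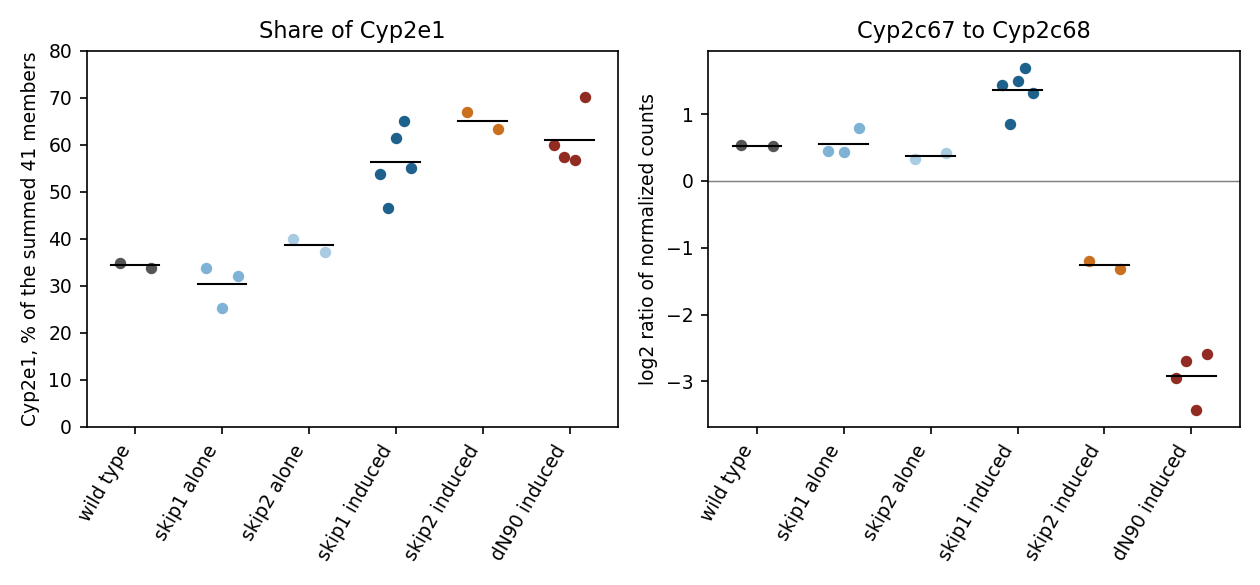
Left, Cyp2e1 as a percentage of the summed normalized counts of the 41 genes in each library, and right, the log2 ratio of Cyp2c67 to Cyp2c68, with lines at group means. The Cyp2e1 share is 25.4% to 40.0% in controls and 46.5% to 70.1% in induced samples, and the ratio is above 0 with skip 1 induced and below 0 with skip 2 and ΔN90.

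The other genes higher in skip 1 than in ΔN90 samples were Cyp3a11 (2.31, SE 0.38, limma adjusted p = 0.000459), Cyp1a2 (1.71, SE 0.36), Cyp2d40 (1.58, SE 0.40), Cyp2c23 (1.41, SE 0.36) and Cyp2j5 (1.35, SE 0.22). Cyp3a11, with 208 to 860.3 against 33.8 to 164, and Cyp2j5, with 88.4 to 183 against 28.8 to 55.1, did not overlap, while Cyp1a2 and Cyp2c23 did. Cyp2c23 and Cyp2d40 lost the call without some single libraries. Without skip 1 induced replicates 1 and 2, 4 genes were higher, Cyp2c67 (2.95), Cyp3a11 (1.83), Cyp2j5 (1.12) and Cyp2c70 (0.85), and 3 lower, Cyp2a5 (-1.90), Cyp2c37 (-1.69) and Cyp2c68 (-1.25). That subset leaves out the skip 1 libraries with the highest P450 share, so this split depends in part on the choice. Skip 2 exceeded ΔN90 in Cyp3a11 as well, with 234 and 372 against 33.8 to 164 (1.89, SE 0.49, limma adjusted p = 0.0407), and this call was lost without either skip 2 replicate. Under quantile normalization the split of skip 1 against ΔN90 was 5 higher and 2 lower.

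Cyp2c37 and Cyp2c29 also diverged. The log2 ratio of Cyp2c37 to Cyp2c29 was -3.19 to -2.28 in the controls, -2.11 to -0.24 with skip 1 induced, -1.21 and -0.83 with skip 2 induced and -0.01 to 0.75 with ΔN90. Cyp2c37 was at 110.1, 113, 62.7 and 26.8 in the ΔN90 samples against 130.3 and 134 in wild type (-0.95, limma adjusted p = 0.221), and at 40.9, 79.6, 16.7, 19.9 and 25.6 with skip 1 induced. Cyp2c37 shares 30.1% of its windows with other transcripts, 21.1% with Cyp2c50, and Cyp2c29 shares 2.08%, so the ratio could hold reads exchanged with Cyp2c50.

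No P450 gene was called between either isoform alone and wild type. Of the 24, limma called 0 higher and 0 lower with skip 1 alone and likewise with skip 2 alone, against wild type. At an unadjusted p under 0.05 it was 0 of 24 in both, where 272 and 330 of all 6592 genes passed. Over all genes limma called 0% in either direction with skip 1 alone and 0.0152% higher and 0% lower with skip 2 alone. The medians of the 24 were -0.12 and 0.16, against 0.01 and 0.03 over all genes. The individual differences ran from -1.05 to 0.35 with skip 1 alone and from -0.73 to 1.04 with skip 2 alone, and groups of 2 and 3 libraries give wide intervals.

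The 17 genes below a mean of 10 were Cyp1b1, Cyp2a22, Cyp2a4, Cyp2b10, Cyp2b9, Cyp2c38, Cyp2c39, Cyp2c40, Cyp2c55, Cyp2c69, Cyp2d11, Cyp2g1, Cyp2j9, Cyp2r1, Cyp2s1, Cyp2t4 and Cyp2w1. Their highest mean was 5.61 and their highest single value 20.1, so a few reads set each value, and none entered the test above. Of these, 4 are described for their pattern, of which Cyp2a4 and Cyp2a22 were chosen after their values were seen. Cyp2b9, a female-predominant gene in mouse liver, was listed at 0 in all 7 controls. It was at 2.15 in skip 1 induced replicate 1 and 0 in the other 4, at 0 and 1.19 with skip 2 induced, and at 4.72, 9.18, 10.03 and 14.9 with ΔN90. Cyp2a4, a steroid hydroxylase also known as female-predominant, was at 0 in all 7 controls, at no more than 0.925 with skip 1 induced, at 4.60 and 7.15 with skip 2 induced and at 3.93, 5.10, 11.3 and 7.95 with ΔN90. Cyp2a4 shares 38.0% of its windows with other transcripts.

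Cyp2a22 was above 0 in 2 of 7 controls, with a highest value of 1.37, and at 5.38, 5.55, 0.929, 3.61 and 3.19 with skip 1 induced, 3.68 and 9.53 with skip 2 induced and 7.87, 15.3, 20.1 and 5.96 with ΔN90. Cyp2b10, the standard target of the xenobiotic receptor CAR, went the other way. It was at 4.53 and 4.16 in wild type, at 8.22, 1.15 and 7.46 with skip 1 alone, at 2.31 and 8.24 with skip 2 alone and at 1.08, 1.85, 0, 0 and 0 with skip 1 induced. It was listed at 0 in all 6 skip 2 induced and ΔN90 libraries. Of 12 genes listed as female-biased, 7 are in the table and all 7 are among the low genes. The Y-linked genes Ddx3y, Eif2s3y and Kdm5d, looked up after the values were seen, were above 0 in all 18 libraries, at 8.52 to 26.6, 8.30 to 25.2 and 3.29 to 11.3.

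When the filter on low values was dropped, limma called Cyp2b10 lower with skip 1 (-1.95), skip 2 (-2.47) and ΔN90 (-2.42, limma adjusted p = 0.00909). In the same fit Cyp2a22 (3.59), Cyp2b9 (3.33) and Cyp2a4 (2.92) were higher with ΔN90 than in wild type, with limma adjusted p of 0.000168, 0.000164 and 0.000314. Cyp2a4 was also higher with skip 2 (2.76) and Cyp2a22 with skip 1 (1.77), while Cyp2c40 was lower with skip 1 (-2.28) and Cyp2c55 with ΔN90 (-2.34). Cyp2b9 separated the tumour groups too, lower by this fit in skip 1 (-3.00, limma adjusted p = 7.47e-05) and skip 2 (-2.76) than in ΔN90 samples. At such low counts these differences depend on the pseudocount and are no measure of fold.

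Of 29 genes listed as partners of the P450 system, 26 were tested. With skip 1 induced, 1 was higher and 3 lower, with skip 2 induced 2 and 3, and with ΔN90 1 and 5. Over all genes limma called 6.55% higher and 8.18% lower, 6.52% and 8.42%, and 10.8% and 12% in these comparisons, so counts of this size are near the background and are no result about the list. Fmo2, a flavin monooxygenase, was at 1.07 to 7.96 in the controls and at 23.7, 12.995, 16.8, 9.96 and 11.8 with skip 1 induced, 53.5 and 37.7 with skip 2 induced and 118, 105, 133 and 65.3 with ΔN90. It rose in each comparison, by 2.29, 3.09 and 4.04. Pgrmc1, a haem-binding protein that contacts P450 enzymes, was lower in each (-0.86, -1.08 and -1.53), as was Ephx2, the soluble epoxide hydrolase that acts on epoxygenase products (-1.40, -1.46 and -1.79). Fmo5 was lower with skip 1 (-1.16), Cyb5b, a cytochrome b5, with skip 2 (-1.02) and ΔN90 (-1.26), and Cyb5a (-0.82) and the haem synthesis gene Cpox (-1.09) with ΔN90. Ahr, the receptor that induces Cyp1a2, was higher with skip 2 (1.41). Por, the electron donor of all microsomal P450 enzymes, was at 176, 227, 78.0, 85.7 and 64.9 with skip 1 induced and at 362, 282, 325 and 281 with ΔN90, without overlap, and was lower in skip 1 than in ΔN90 samples (-1.47).

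The z-scores give no level or fold. The authors selected the 1659 genes and named them as differentially expressed genes, by a comparison that is not stated in the sources used here. Calls among them therefore retest a set chosen from the same series and are no independent support. From the values, the SD of each gene was taken over 17 libraries, the 16 used here and a further one that is not analysed here, so the size of 1 SD depends in part on that library. All 19 P450 genes in it were lower in subtype A and in subtype B than in the sgActin and YAPS127A control, where limma called 55.6% of all z-scored genes lower in either comparison and 41.7% and 44.1% higher. The differences ran from -2.42 to -1.44 in subtype A and from -2.63 to -2.33 in subtype B, with medians of -2.27 and -2.58 against -1.99 and -2.46 over all genes. The comparisons share the control.

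Between subtypes, 13 of the 19 were higher in subtype A and 0 lower, where limma called 40.3% of all z-scored genes higher and 20.9% lower, and the median was 0.31 against 0.19. Cyp2c67 was at z-scores of 1.11, 0.0435, 0.0576 and 0.186 in subtype A, at -0.824 (lowest), -0.761 (median) and -0.139 (highest) in subtype B and at 2.11, 1.58 and 1.68 in the control. The subtypes did not overlap, and 1 subtype A library stood far above the other 3. Its difference was 1.01 SDs (SE 0.18, limma adjusted p = 0.000962), the largest of the 19. Cyp2c70 (0.74, SE 0.15) and Cyp2a12 (0.60, SE 0.10) followed, with subtype A at -0.249 to 0.632 and -0.232 to 0.254 and subtype B at -0.721 to -0.557 and -0.718 to -0.487.

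The other 10 genes higher in subtype A were Cyp3a59 (0.45), Cyp2j5 (0.45), Cyp2c50 (0.39), Cyp2d13 (0.36), Cyp3a25 (0.34), Cyp2d10 (0.31), Cyp1a2 (0.27), Cyp2c54 (0.24), Cyp2d26 (0.23) and Cyp2d22 (0.18). Cyp1a2 and Cyp2d22 overlapped between subtypes. Cyp1a2, Cyp2c54, Cyp2d22 and Cyp3a59 lost the call without subtype A replicate 1, and all but Cyp2d22 of them also without replicate 4. Cyp3a11 was at -0.379 to -0.237 in subtype A and at -0.544 to -0.451 in subtype B, apart but not called (0.20, limma adjusted p = 0.118). Cyp2c29 (0.16), Cyp2u1 (0.21), Cyp2d40 (0.26), Cyp2c55 (0.34) and Cyp2b10 (0.04) were not called either. Of 10 partner genes in this table, 5 were higher in subtype A and 2 lower, Ahr (-0.62) and Fmo2 (-1.23), which is near the 40.3% and 20.9% of all z-scored genes.

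**Figure D5:**
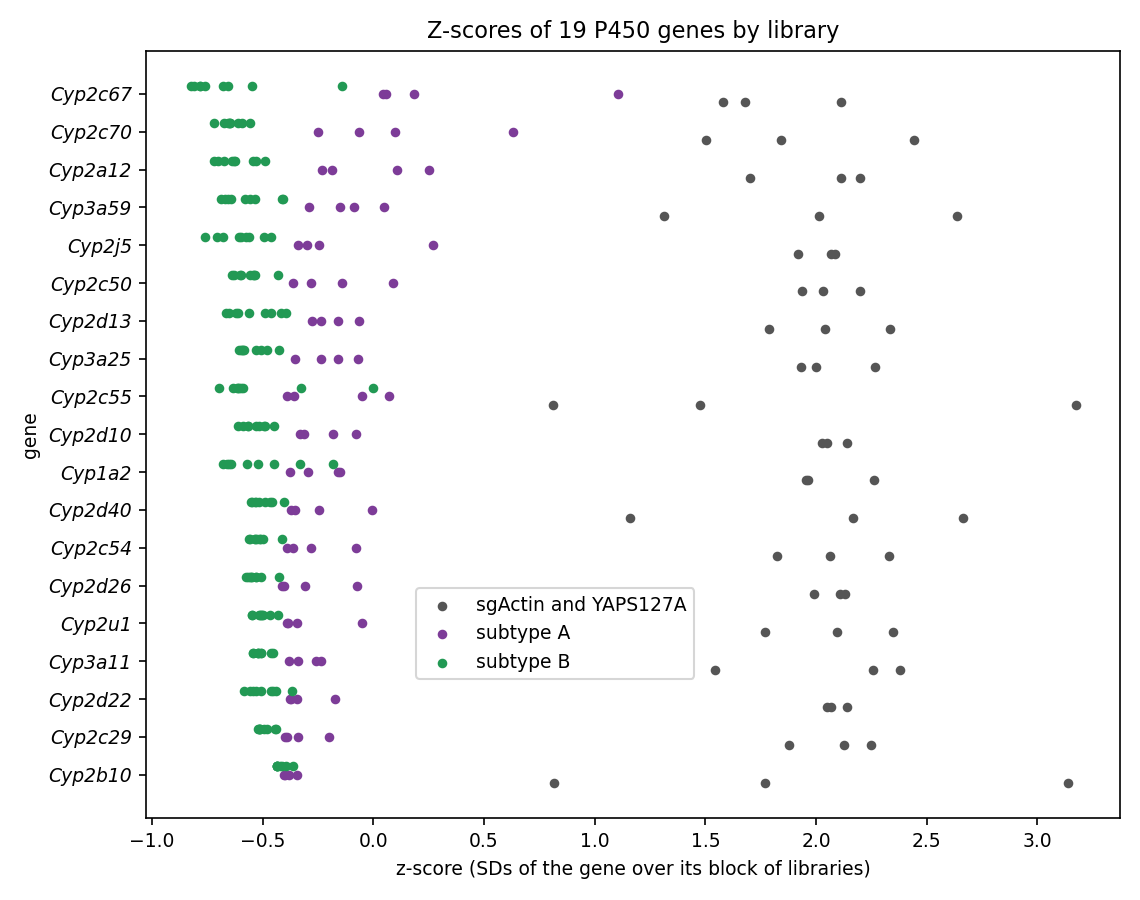
Z-scores of 19 P450 genes (rows) in subtype A, subtype B and the sgActin and YAPS127A control, with 1 point per library, in SDs of the gene. The control lies highest for every gene, and Cyp2c67 in the top row has the largest difference between the subtypes, 1.01 SDs.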

How the data were processed

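RNA sequencing of mouse liver samples gave 34 libraries in 9 groups, assigned by their source label. For 18 libraries the authors deposited a signal per gene, a count scaled by library and not divided by length, and per the submitters' processing notes FastQC, STAR, RSEM and DESeq2 were used on mm10, with versions and settings not given in the sources used here. The authors also deposited a score, a z-score of each of 1659 genes that they selected, centred and scaled in 2 blocks that were not tested against each other. Over the 18 libraries all 1659 genes had a mean of 0 and an SD of 1. Over the 16 others none did (within 0.01), but all 1659 did for 17 libraries when 1 more value per gene was allowed, so that block was scaled with a further library that is not analysed here. The depth of the 16 libraries is unknown. Estimated reads of the 18 are the summed values divided by the value of 1 read, found from values that were whole multiples within 0.001.

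Genes with a mean of at least 10 (6592) were tested on log2(value + 1) by limma 3.58.1 (R 4.3.3). The fit had a coefficient for each group over all 18 libraries and a trended prior, and its two-sided p-values were adjusted by Benjamini-Hochberg over all genes. Z-scores were tested over the 16 libraries without a trend. Gene positions are from GENCODE vM21, in which Cyp2d13 was not matched, and sequences were handled with Python 3.11.15, pandas 2.3.3 and Biopython 1.88. The scripts were tested on simulated data.

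The genes and the lists of pericentral, female-biased, partner and marker genes were chosen with earlier results of these data known. Values in every library were given by a stated rule for Cyp1a2, Cyp2e1, Cyp2c29, Cyp2a5, Cyp3a11, Cyp2b9 and Cyp2b10 and, per comparison, for up to 6 called genes of largest difference without overlap and with the higher group's mean reaching 100. Those of Cyp2c67, Cyp2c68, Cyp2u1, Cyp2d40, Cyp2a4, Cyp2a22, Fmo2 and Por were chosen after they were seen. The labels do not state whether a group's libraries are from different animals. The p-values therefore reflect sample-to-sample spread that may be technical. Alternatives were pseudocounts of 0.5 and 5, no filter or a mean of at least 50, quantile normalization, only the compared groups, array weights, depth as a covariate, a pooled reference, a trended prior for the z-scores and left-out libraries. The tests of a difference between effects, run for 3 pairs of effects, were added after the data were seen.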

Additional observations from a re-analysis of the deposited data

Results flagged for a closer look

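Cyp2j5 in skip 1 induced replicate 2, at 183 normalized counts, stood apart from the other 4 libraries of its group, of which the nearest was at 104. Among the z-scores, subtype A replicate 1 stood above the other 3 libraries of its subtype for Cyp2c67 (1.11, the next at 0.186), Cyp2d22 (-0.171), Cyp2j5 (0.272) and Cyp2u1 (-0.0515). Subtype B replicate 6 stood above the other 8 for Cyp2c50 (-0.430), Cyp2c54 (-0.411), Cyp2c67 (-0.139) and Cyp2d26 (-0.427). These are 9 of 86 combinations of a gene and a group of 4 to 10 libraries (10.5%). Chance gives about 1 in 20 if values are normally distributed. Of the 86, 48 were of normalized counts, where only Cyp2j5 was flagged, and 38 of z-scores. All flags among the z-scores lay in those 2 libraries, and genes of the same library are not independent. Without subtype A replicate 1, 9 genes were called higher in subtype A than in subtype B, against 13 with it.

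For Cyp2c67 the difference of ΔN90 from wild type and that of skip 1 induced from skip 1 alone were themselves -2.90 apart. This is on the log2(normalized count + 1) scale (SE 0.43, limma adjusted p = 0.000707). The 2 contrasts are unlike, because there was no group with ΔN90 alone. The same test of the other pairs of effects called no P450 gene. All 4 ΔN90 libraries, at 4.97 to 9.44, lay below both wild type libraries, while the skip 1 induced libraries, at 44.6 to 99.3, overlapped the skip 1 alone libraries at 60.8 to 88.6.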

How the results depend on the processing

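The direction of every P450 difference that was called held under all alternatives run. No paired analysis was possible because the labels number no replicates across groups. Counts of called P450 genes without 1 library at a time ran from 8 to 13 for skip 1 induced against alone (11 with all libraries), 6 to 14 for skip 2 (15), 11 to 17 for ΔN90 against wild type (16), 6 to 9 for skip 1 against ΔN90 (7) and 9 to 13 for subtype A against B (13). They stayed at 19 for both subtypes against the control and at 0 for the isoforms alone. The lowest skip 2 counts were 6 without induced replicate 1 and 9 without alone replicate 1.

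For skip 1 against skip 2 induced (1) the left-out counts ran from 0 to 2. The count was 2 without a filter, when Cyp2a4 was lower in skip 1 (-2.38, limma adjusted p = 0.0141), 2 under quantile normalization, 0 at a mean of at least 50, which removes Cyp2c67 from the test, and 0 with depth as a covariate, when limma called 13 genes in all. For skip 2 against ΔN90 (2) they ran from 0 to 2, and the count was 1 at a mean of at least 50, 0 with only the compared groups and 0 with depth as a covariate. The cause of these changes was not tested except where stated. Under quantile normalization the split of higher to lower was 1 to 9 with skip 1, 1 to 13 with skip 2 and 1 to 14 with ΔN90, the 1 being Cyp2e1. Skip 2 groups hold 2 libraries each, low genes rest on a few reads, and near-identical copies within Cyp2a, Cyp2c and Cyp2d may exchange reads.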
